A study of Schizosaccharomyces pombe with 37 samples.

Results

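The G1/S genes of fission yeast (Schizosaccharomyces pombe) that are known targets of the transcription factor MBF were examined in 10 strains. They were picked by name as known targets, 10 of the 6996 features in the expression table: the replication licensing genes cdc18 and cdt1, the ribonucleotide reductase genes cdc22 and suc22, the single-strand DNA binding gene ssb1, the cell cycle regulators cig2, mik1 and cdt2, and the MBF co-repressors nrm1 and yox1. These genes were chosen with earlier results of these data known. All 10 passed the filter on low values (a mean of at least 1 CPM, reads counted on the gene scaled to the library total), as did 5911 features in all.

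MBF is a complex built on Cdc10 with the DNA binding proteins Res1 and Res2. It switches on a wave of transcription as cells pass from G1 into S phase, so that replication origins are licensed, deoxynucleotides are made and the S phase cyclin appears together. Among its own targets, nrm1 and yox1 encode proteins that bind MBF and turn the wave off again, and the DNA replication checkpoint can hold the wave on by releasing that repression. In an exponentially growing culture cells of all cycle stages are mixed, so a level is an average over the culture, and a larger share of cells at G1/S and more RNA per such cell cannot be told apart.

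Total RNA was sequenced from 3 replicates of each strain, 30 libraries in all, grown exponentially in YES medium at 30 degrees C. All strains were h- and carried the markers leu1-32 and ura4-D18, the ade6-704 allele and a trp1+::ade6+ reporter. The paper states that the cells used for this sequencing made no primary small RNAs from an ade6 hairpin. The study asked which factors keep small RNAs from silencing that reporter, and 6 of the mutants are hit in the cleavage and polyadenylation factor (CPF), the machine that cuts and tails pre-mRNA: the point mutants yth1-R59C and pfs2-F115H in its poly(A) polymerase module, and the kanMX deletions ssu72D, dis2D, ppn1D and swd22D in its phosphatase module. Dis2 is a protein phosphatase 1 catalytic subunit that also acts outside CPF, including in mitosis. The other mutants, PAS-T4A, PAS-T4C and PAS-T4G, changed 1 base of the polyadenylation signal of the reporter. The parental strain was labelled wt. Each mutant is represented by 1 named strain, and nothing in the labels says that replicates came from separate cultures, so the p-values measure the spread between these libraries, which may be technical.

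Between 1031839 and 6343790 reads were counted per library, and 3 reads, taken as the floor of detection, were worth 0.473 to 2.91 CPM. The dis2D libraries held 1335687 to 2123033 reads, fewer than the 3712677 to 6343790 of the wt libraries. The deleted genes ssu72, dis2 and swd22 had 0 reads in the strains that lack them. The libraries labelled ppn1D held 955 reads on ppn1, 76.3 to 86.1 CPM, against 62.8 to 79.3 CPM in wt, so a deletion of ppn1 was not seen in these counts and directions given for the libraries labelled ppn1D rest on the label alone. The dis2D libraries also had 0 reads on cao1, a copper amine oxidase gene that the label does not name, against 136.8 to 162.3 CPM in wt, so the dis2D libraries differ from wt in the presence of reads at more than dis2.

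The promoters of these genes show the letters that MBF is known to read. Its core element, the MluI cell cycle box, is ACGCGT, which reads the same on both strands, and its CGCG centre also occurs without the flanking letters. In windows of 300 bases, 250 before and 50 after the annotated gene start, 9 of the 10 members had at least 3 copies of CGCG (each ACGCGT counted among them), against 0.841% of 5110 windows of coding genes. At least 1 ACGCGT stood in the windows of 5 of 10 members and in 3.25% of the coding windows. The stretch of 30 bases with the most CGCG is given 5′ to 3′ on the strand of the gene for 8 members, since the boxes are what this group of genes shares, with CGCG and ACGCGT in capitals (RefSeq sequence, build ASM294v3).
cdc18: atttCGCGtttacgtgtCGCGtCGCGtata
cdt1: gctaCGCGACGCGTcaacaaaCGCGacacg
cdc22: tagcgtgACGCGTctgaACGCGTttttcat
cig2: tgCGCGaaagCGCGtttctCGCGtCGCGtc
ssb1: tacgACGCGTcatgACGCGTtCGCGttttt
cdt2: cacggACGCGTCGCGttcACGCGTcacgaa
nrm1: ttCGCGctttaaagggcgtCGCGtCGCGtt
yox1: aatgatatagCGCGACGCGTcgttaaacgt

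These stretches lie at II:2218020-2218049 (cdc18, minus strand), II:477307-477336 (cdt1, plus), I:4226901-4226930 (cdc22, plus), I:2709702-2709731 (cig2, plus), II:221338-221367 (ssb1, minus), I:2035743-2035772 (cdt2, minus), II:4285869-4285898 (nrm1, plus) and II:1648161-1648190 (yox1, plus). All 8 began 65 to 85 bases before the annotated gene start. The genes mik1 and ssb1 are divergent neighbours that share base 221298 of chromosome II as their annotated start, so the bases before ssb1 are annotated as the 5′ untranslated region of mik1. The window of mik1 held 3 copies of CGCG, at II:221317-221346. These copies also lie in the window of ssb1, so they were counted for both members. suc22 was the only member with no CGCG in the window. With 500 bases before the start codon in place of that window, 8 of 10 members had at least 3 copies of CGCG, against 1.47% of the coding windows, while cig2 had none and suc22 had 1. A match is a description of the letters and not of binding.

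In wt the levels per kilobase of exon fell into a high and a low tier. The ribonucleotide reductase subunits led, with 281 ± 24.7 CPM per kb for suc22 (the small subunit) and 208 ± 8.22 CPM per kb for cdc22 (the large subunit), and ssb1, the large subunit of replication protein A, followed with 64.4 ± 4.71 CPM per kb (SD, n = 3 each). The other 7 members lay between 13.0 CPM per kb (mik1) and 23.0 CPM per kb (yox1). In falling order they were yox1, nrm1 (21.9 CPM per kb), cdc18 (19.1), cdt2 (18.5), cdt1 (15.2), cig2 (14.0) and mik1. Of neighbours in this order only nrm1 and cdc18 differed by more than the sum of their SDs (1.05 and 0.465 CPM per kb). Low levels mean few reads: a single library held as few as 9 reads on yox1, 24 on cdt1, and 27 on mik1 and on cdt2, but at least 538 on cdc22.

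**Figure D1:**
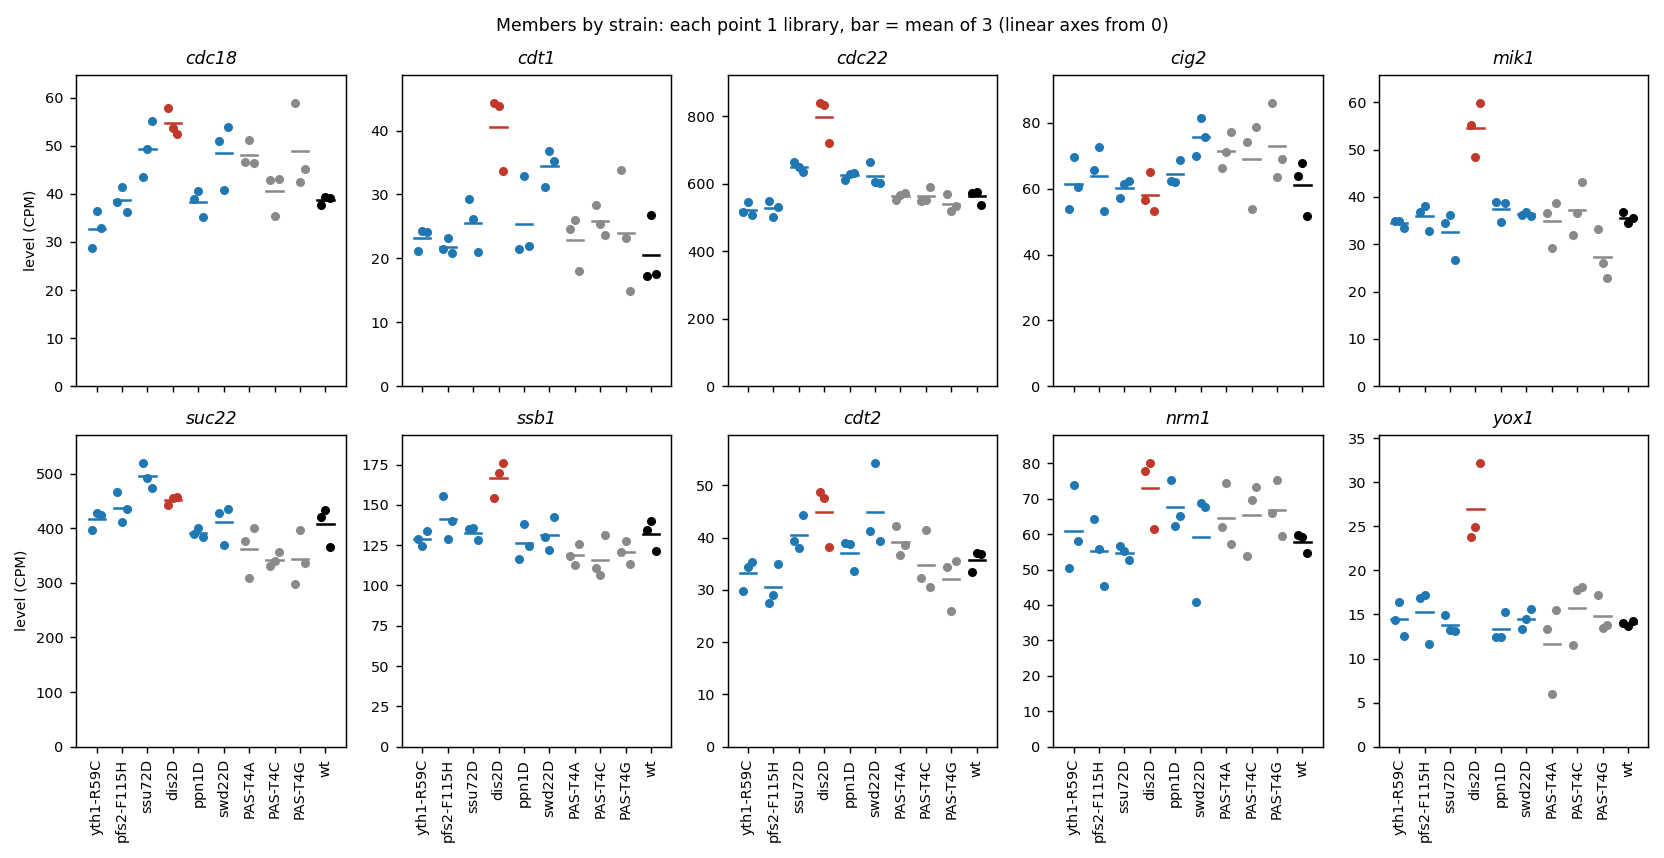
Level of each member in CPM (vertical axes, linear and starting at 0) in the 3 libraries of each strain. Points are libraries and bars the means of 3. CPF mutants are blue, dis2D red, PAS mutants grey and wt black. The dis2D libraries stand above all others for mik1 and yox1, at 48.5 to 59.9 and 23.8 to 32.2 CPM, and cig2 shows no such step.

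More members passed in dis2D than in any other comparison with wt. Of the 10, 6 rose in dis2D (cdc18, cdt1, cdc22, mik1, ssb1 and yox1) and none fell, at an adjusted p under 0.05 (limma on log2(CPM + 1), Benjamini-Hochberg over all genes tested). Over all genes tested 7.24% were called higher in dis2D and 12.0% were called in either direction. The members were chosen with earlier results of these data known, so these shares stand beside their count as a description only. None of the members passed with a change of at least 2-fold, as 1.30% of all genes did in the upward direction, and the rises lay between 0.33 and 0.97 on the log2 scale. In 9 of 10 members every dis2D library lay above every wt library, which was so for 24.6% of all genes tested. The median log2 change was 0.41 over the members and 0.09 over all genes tested.

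Both licensing genes rose in dis2D. cdc18 encodes the loader that, with Cdt1, brings the MCM helicase to origins, and its level was 57.8, 53.7 and 52.4 CPM in dis2D, against 37.6, 39.4 and 39.1 CPM in wt. The groups did not overlap, and the log2 change was 0.49 ± 0.13 (SE, adjusted p = 0.0107). cdt1 stood at 44.3, 43.8 and 33.7 CPM in dis2D and at 17.3, 26.8 and 17.5 CPM in wt. The highest wt library was below the lowest dis2D library, and the change of 0.97 ± 0.21 (adjusted p = 0.00189) was the largest among the members. Under quantile normalization cdc18 lost its call (adjusted p = 0.0571), while cdt1 kept its call in all 19 settings tried.

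The deoxynucleotide genes parted. cdc22, the large subunit of ribonucleotide reductase, had 840.2, 834.5 and 720.1 CPM in dis2D, against 574.1, 576.7 and 537.0 CPM in wt. Its lowest dis2D library lay well above its highest wt library, and with a log2 change of 0.50 ± 0.062 (adjusted p = 3.3e-07) it was the member measured most precisely. suc22, the small subunit, had 443.2, 455.9 and 456.6 CPM in dis2D and 420.4, 434.6 and 366.5 CPM in wt, a log2 change of 0.15 (95% interval -0.02 to 0.33) that did not pass (adjusted p = 0.257). suc22 is known to give a constant and a cell cycle regulated transcript, and values per gene sum both.

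ssb1, which coats single-stranded DNA at forks, had 154.2, 169.5 and 175.9 CPM in dis2D and 134.4, 140.0 and 121.2 CPM in wt. The groups did not overlap, with a log2 change of 0.33 ± 0.088 (adjusted p = 0.0101). The call was lost without replicate 3 of dis2D (adjusted p = 0.0704), without replicate 3 of wt (0.0877), and under median-of-ratios scaling (0.0561), TMM scaling (0.0593) and DESeq2 (0.0753).

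Among the cell cycle regulators only mik1 passed. It encodes a kinase that, like Wee1, holds Cdc2 inactive, and had 55.2, 48.5 and 59.9 CPM in dis2D, against 36.9, 34.5 and 35.5 CPM in wt. Every dis2D library was above every other library of the series, with a log2 change of 0.60 ± 0.14 (adjusted p = 0.00426). cig2, the cyclin of S phase onset, had 56.5, 65.0 and 53.1 CPM in dis2D and 64.0, 67.8 and 51.7 CPM in wt. These overlapped throughout, and the log2 change was -0.07 (95% interval -0.34 to 0.21). cdt2, the adaptor through which the Cul4 ubiquitin ligase removes Cdt1 and the reductase inhibitor Spd1, had 48.8, 47.6 and 38.2 CPM in dis2D and 33.4, 37.0 and 36.9 CPM in wt. Its dis2D libraries lay above the wt ones, but the change of 0.31 (95% interval 0.02 to 0.61) did not pass (adjusted p = 0.162).

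Both co-repressors had higher means in dis2D, and 1 passed. yox1, a homeodomain protein, had 23.8, 25.0 and 32.2 CPM in dis2D, against 14.0, 13.7 and 14.3 CPM in wt. Those dis2D values rest on 37, 53 and 43 reads and did not overlap with any library of another strain, with a log2 change of 0.89 ± 0.23 (adjusted p = 0.00901). Without replicate 3 of dis2D the call was lost (adjusted p = 0.0743). nrm1 had 77.7, 80.1 and 61.4 CPM in dis2D and 59.7, 59.3 and 54.7 CPM in wt. All dis2D libraries were above all wt libraries, but replicate 3 only just, and the change of 0.32 (95% interval -0.01 to 0.65) did not pass (adjusted p = 0.195).

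**Figure D2:**
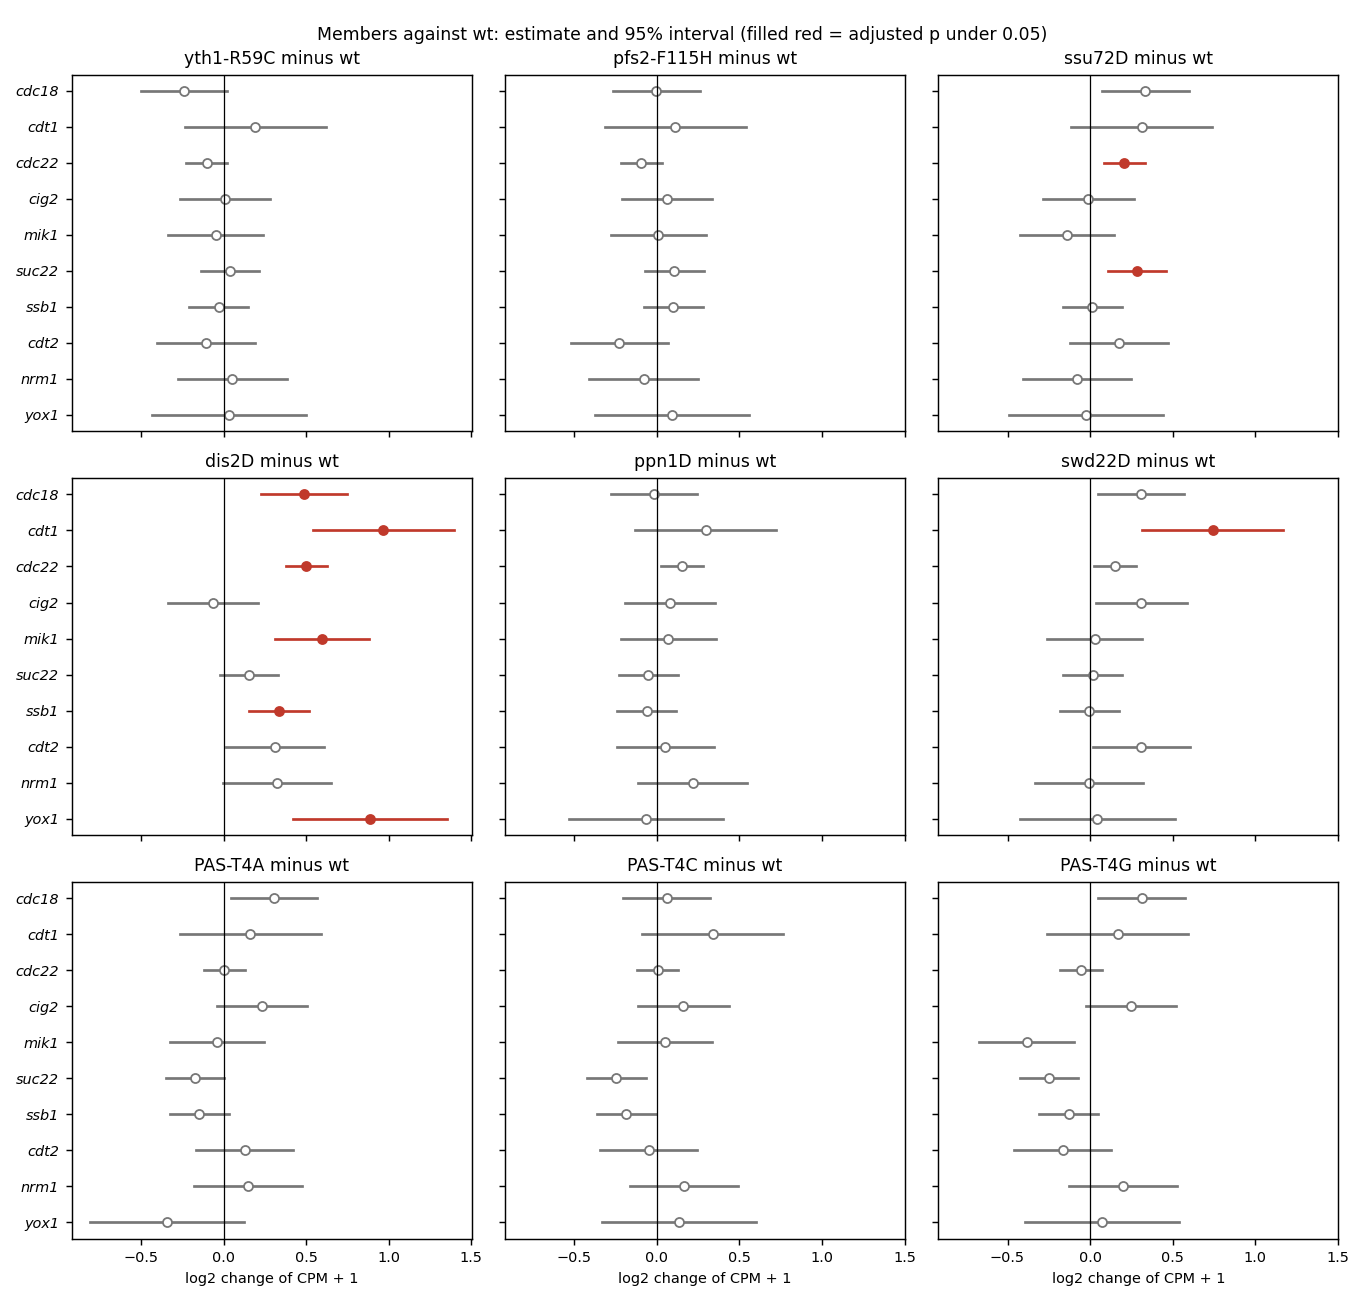
Log2 change of CPM + 1 (horizontal axes) of each member in each of the 9 mutants minus wt, with 95% intervals. Filled red points passed at an adjusted p under 0.05 (limma). They number 6 in dis2D, 2 in ssu72D (cdc22 and suc22) and 1 in swd22D (cdt1).

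Outside dis2D the calls were few. In ssu72D, which lacks a phosphatase of the RNA polymerase II tail, 2 members rose and none fell, where 8.27% of all genes were called higher and 16.8% in either direction. They were the 2 reductase subunits. cdc22 had 664.9, 648.9 and 635.5 CPM in ssu72D, against 574.1, 576.7 and 537.0 CPM in wt, a log2 change of 0.21 ± 0.062 (adjusted p = 0.0170). suc22 had 519.6, 491.8 and 474.8 CPM in ssu72D, against 420.4, 434.6 and 366.5 CPM in wt, a change of 0.29 ± 0.087 (adjusted p = 0.0204). Both genes had all ssu72D libraries above all wt libraries, as did cdc18 and cdt2, 4 of 10 members, which was so for 22.7% of all genes tested. Both calls were lost without replicate 1 of ssu72D (adjusted p = 0.0707 for cdc22 and 0.0910 for suc22) and without replicate 3 of wt (0.102 and 0.162), and cdc22 also lost its call under TMM scaling (0.0565). The licensing gene cdc18 came next, with 43.5, 49.4 and 55.0 CPM in ssu72D, against 37.6, 39.4 and 39.1 CPM in wt. Its change of 0.34 did not pass (adjusted p = 0.0716), but it was called higher with edgeR (26.0% of all genes called), in the fit over the 2 strains alone (26.9%) and without replicate 1 of ssu72D (13.2%).

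In swd22D, which lacks a WD40 subunit of the phosphatase module, 1 member rose (7.17% of all genes were called higher, 20.0% in either direction). cdt1 had 31.2, 36.8 and 35.3 CPM in swd22D, against 17.3, 26.8 and 17.5 CPM in wt, with no overlap and a log2 change of 0.74 ± 0.21 (adjusted p = 0.0104). The wt libraries spread more for cdt1 than for any other member (26.4% of their mean), and the call was lost without replicate 1 (adjusted p = 0.0611) or replicate 3 (0.0593) of wt. A further 4 members of swd22D (cdc18, cdc22, cig2 and cdt2) had positive changes of 0.15 to 0.31 with an unadjusted p under 0.05, as 32.0% of all genes had in either direction, but did not pass after adjustment. Of these, cdc18 was called with edgeR (19.6% of all genes called) and without replicate 2 of swd22D (14.0%), cdc22 under quantile normalization (20.3%), with DESeq2 (16.2%) and against wt and PAS strains together (19.8%), and cdt2 in that last setting.

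No member passed in the other 6 comparisons. The share of all genes called was 3.86% in yth1-R59C, 19.0% in pfs2-F115H, 2.44% in the libraries labelled ppn1D, 7.34% in PAS-T4A, 3.77% in PAS-T4C and 8.88% in PAS-T4G. At an unadjusted p under 0.05 the members numbered 0 in yth1-R59C (16.6% of all genes), 0 in pfs2-F115H (31.9%), 1 in ppn1D (cdc22; 10.4%), 1 in PAS-T4A (cdc18; 21.4%), 2 in PAS-T4C (suc22 and ssb1; 17.4%) and 3 in PAS-T4G (cdc18, mik1 and suc22; 22.6%). On recovered reads edgeR called 1 member each in pfs2-F115H (cdc22, lower, with 19.5% of all genes called) and PAS-T4G (suc22, lower, with 8.64%). DESeq2 called the same members (16.3% and 8.96% of the genes given an adjusted p) and cdc22 in yth1-R59C (lower, with 4.87%), and neither tool called any in ppn1D, PAS-T4A or PAS-T4C. In pfs2-F115H the median of all genes stood 0.12 above 0 on the log2 scale, and median-of-ratios and TMM scaling, which move it to near 0, also called cdc22 lower there (16.5% and 16.7% of all genes called). PAS-T4G had the lowest mean level of mik1 of all strains, with 33.3, 26.0 and 22.8 CPM, against 36.9, 34.5 and 35.5 CPM in wt, a log2 change of -0.38 (adjusted p = 0.0850).

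The mutants were also set against each other, since passing against wt in 1 strain and not in another does not show a difference between them. By limma, dis2D was higher for 6 members than yth1-R59C (4.62% of all genes), for 6 than pfs2-F115H (5.53%), for 5 than ssu72D (11.1%), for 6 than the libraries labelled ppn1D (9.90%) and for 4 than swd22D (19.6%). cdc22, mik1 and yox1 were higher in dis2D than in each of the other 5 CPF mutants. Their log2 differences ranged from 0.29 to 0.60 for cdc22, from 0.53 to 0.74 for mik1 and from 0.79 to 0.95 for yox1. The direct comparisons were made on the CPM as deposited and were not repeated in other settings. On that scale the median difference of all genes between dis2D and swd22D was 0.12.

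The licensing genes did not separate dis2D from all CPF mutants. For cdt1 the difference between dis2D and swd22D was 0.22 (95% interval -0.20 to 0.65, adjusted p = 0.470), while dis2D was higher by 0.65 than ssu72D. For cdc18 the difference was 0.15 (-0.11 to 0.41) against ssu72D and 0.18 (-0.08 to 0.44) against swd22D, and neither passed. These cdc18 levels were 43.5, 49.4 and 55.0 CPM in ssu72D and 50.9, 40.7 and 53.8 CPM in swd22D. They lay above the 28.8, 36.4 and 32.9 CPM of yth1-R59C, and both strains were called higher than yth1-R59C for cdc18, by 0.58 (adjusted p = 0.00164) in ssu72D and by 0.55 (adjusted p = 0.00184) in swd22D. Against yth1-R59C, 5.40% of all genes were called higher in ssu72D and 4.91% in swd22D.

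**Figure D3:**
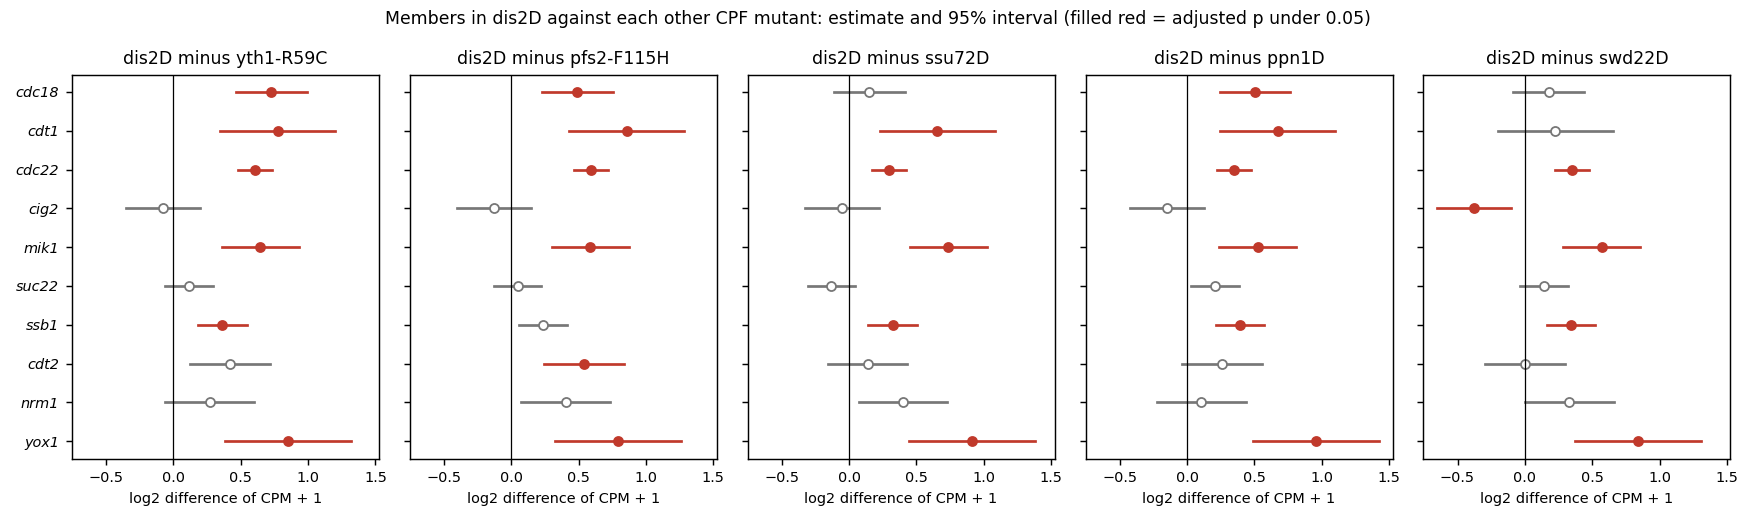
Log2 difference of CPM + 1 (horizontal axes) of each member in dis2D minus each of the other 5 CPF mutants, with 95% intervals. Filled red points passed at an adjusted p under 0.05 (limma). cdc22, mik1 and yox1 are filled to the right of 0 in all 5 panels, and cig2 is filled to the left of 0 against swd22D.

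cig2 was called lower in dis2D than in swd22D. Its levels were 56.5, 65.0 and 53.1 CPM in dis2D, against 70.0, 81.4 and 75.8 CPM in swd22D, with no overlap and a log2 difference of -0.38 (adjusted p = 0.0381). In that comparison 321 of 5911 genes were called lower in dis2D. Against wt cig2 passed in neither strain (-0.07 in dis2D, and 0.31 in swd22D with limma adjusted p = 0.101). Nor did it differ over the 10 strains at once (F-test of limma, adjusted p = 0.143). cdt2 was level in dis2D and swd22D (difference 0.00, 95% interval -0.29 to 0.30), and both were higher for it than pfs2-F115H, by 0.54 each, where 5.75% of all genes were called higher in swd22D than in pfs2-F115H. ssu72D was called higher than pfs2-F115H for cdt2 as well, by 0.40, and for cdc22, by 0.30 (5.19% of all genes).

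suc22 had its highest mean in ssu72D. There it was called higher than in yth1-R59C by 0.25 (adjusted p = 0.0453), than in the libraries labelled ppn1D by 0.34 (adjusted p = 0.00485; 8.85% of all genes) and than in swd22D by 0.27 (adjusted p = 0.0313; 10.4%). Its difference from dis2D, 0.13 (95% interval -0.05 to 0.31), and from pfs2-F115H, 0.18 (0.00 to 0.36), did not pass. 

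Across all 10 strains at once, 8 of 10 members differed (F-test of limma, adjusted p under 0.05), where 60.1% of all genes tested did. The 2 that did not were cig2 (adjusted p = 0.143) and nrm1 (adjusted p = 0.260).

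The correlations between members over the 30 libraries were mostly positive and weak. Over the 45 pairs the Pearson r of log2(CPM + 1) had a median of 0.26 (38 pairs positive), and of 0.10 over the 27 libraries without dis2D (30 positive). After subtracting strain means 33 pairs were positive. The points share strains and depth, so these are descriptions. Few reads on some members can also lower r, and no other gene pairs were set beside them. The closest pairs were mik1 with yox1 (r = 0.72) and suc22 with ssb1 (r = 0.70), and both pairs also varied together within strains (r = 0.70 and 0.63 after subtracting strain means). In dis2D, for example, replicate 3 was the highest library for mik1, yox1, suc22 and ssb1 and the lowest for the other 6 members. In PAS-T4A, replicate 2 was the lowest for both mik1 (29.3 CPM) and yox1 (5.99 CPM, 9 reads).

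**Figure D4:**
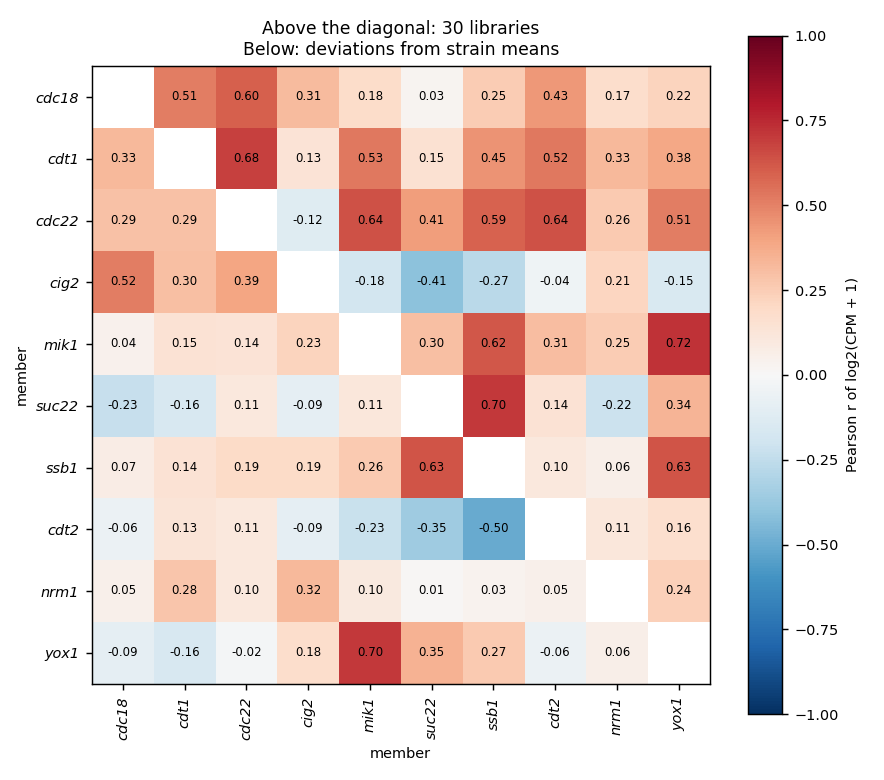
Pearson r of log2(CPM + 1) for each pair of members, above the diagonal over 30 libraries and below it over deviations from strain means, with colours from blue (-1) to red (1). Values above the diagonal run from -0.41 to 0.72 with a median of 0.26, and mik1 with yox1 and suc22 with ssb1 stay strongly red on both sides.

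Outside the members, the gene whose pattern over the 30 libraries was most like their mean standardized level was tos4 (r = 0.84), itself a known MBF target. It had 251.8, 303.8 and 291.9 CPM in dis2D, against 190.1, 189.8 and 168.6 CPM in wt, a log2 change of 0.62 ± 0.075 (adjusted p = 2.37e-07). The next were the hexose transporter gene ght5 (r = 0.77), grt1-antisense-1 (0.75), SPBPB8B6.02c (0.74) and eno102-antisense-1 (0.74), all of which had higher levels in dis2D than in wt. All 5, tos4 included, were picked by likeness to a mean level that was raised in dis2D, so their rise there is no separate evidence. In wt SPBPB8B6.02c had 1.00, 0.16 and 0.54 CPM and grt1-antisense-1 2.51, 0.47 and 1.08 CPM, where the floor was 0.473 to 0.808 CPM.

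Genes around the MBF pathway were followed in dis2D by list. Of 7 other known MBF targets 3 rose, with log2 changes of 0.62 for tos4, 0.41 for the mismatch repair gene msh6 and 0.40 for the replication fork checkpoint gene mrc1. The other 4 (ctp1, rad21, dut1 and pol1) had changes of 0.10 to 0.17 that did not pass, and 7.24% of all genes were called higher. The list median was 0.17, with 0.17 for replication genes not known to be MBF targets and 0.18 for replication checkpoint genes. It was 0.28 for mitotic wave genes and 0.09 for all genes tested. Under median-of-ratios scaling, TMM scaling, quantile normalization, edgeR and DESeq2 the median of these 7 targets was 0.07 to 0.08, with 3 still called higher. Of the 5 genes of MBF itself and its activators (cdc10, res1, res2, rep1 and rep2) none passed (limma). res2 came nearest, at 32.9 CPM in dis2D and 23.7 CPM in wt (change 0.44, adjusted p = 0.0504). In 3 settings 1 of the 5 was called higher. These were a pseudocount of 0.1 CPM (6.90% of all genes called higher), a filter at a mean of 10 CPM (8.37%) and the fit without replicate 3 of dis2D (3.65%).

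Of 15 partners of the members 2 rose: pas1, a G1 cyclin gene, by 0.76 and cul4, the ubiquitin ligase scaffold, by 0.35. Under median-of-ratios scaling, TMM scaling, quantile normalization, edgeR and DESeq2, and without replicate 2 or 3 of dis2D or replicate 3 of wt, 1 partner was called higher. None of 8 replication checkpoint genes passed, and of 21 replication genes not known to be MBF targets 1 did (orc4, 0.30). That count was 0 under the same 5 scalings and tools and without replicate 2 or 3 of dis2D or replicate 1 or 3 of wt, 2 in the fit over the 2 strains alone, and 6 against wt and PAS strains together. Counted by sequence instead, 14 genes outside the members had at least 2 ACGCGT in the 300 bases at their start. Of these 2 rose (mrc1, 0.40, also counted above, and the cytokinesis gene etd1, 0.54) and 1 fell (the ribosomal protein gene rpl2501, -0.21). Over all genes tested 7.24% were called higher and 4.80% lower. The list median was 0.23 in dis2D, but also 0.25 in ssu72D, 0.17 in pfs2-F115H and 0.16 in yth1-R59C, and -0.07 in PAS-T4C. Genes at 1.62 to 2.18 CPM in dis2D, where 3 reads were worth 1.41 to 2.25 CPM, were among the larger changes (0.43 to 0.52). etd1 and rpl2501 were named after their values were seen.

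Genes of other cell cycle stages moved in dis2D too. Of 6 genes of the mitotic wave 3 rose (fin1 by 0.30, slp1 by 0.29 and cdc15 by 0.28), but under median-of-ratios scaling, TMM scaling, quantile normalization, edgeR and DESeq2 none passed, and only 1 did without replicate 1 or 2 of dis2D, without replicate 3 of wt, or against wt and PAS strains together. Of 7 genes of the septation wave 3 rose (adg2 by 0.61, mid2 by 0.30 and eng1 by 0.26), where 7.24% of all genes were called higher. That count was 2 under median-of-ratios scaling, TMM scaling, edgeR and DESeq2, and without replicate 1 of dis2D. Against wt and PAS strains together 2 of the septation genes were called higher and 1 lower. Genes of the septation wave were also called higher in swd22D (4 of 7; 7.17% of all genes) and PAS-T4A (4 of 7; 3.28%). They numbered 2 in the libraries labelled ppn1D (1.39%), 2 in PAS-T4C (1.18%) and 1 in PAS-T4G (4.35%). In ssu72D 3 of the 7 were called lower (8.49% of all genes). Of 9 histone genes, which are made in S phase, 5 fell (hhf3 by 0.55, hht2 by 0.49, hta2 by 0.48, hhf1 by 0.28 and htb1 by 0.25) and none rose, where 4.80% of all genes were called lower. The histone genes called lower numbered 2 against wt and PAS strains together, 3 without replicate 3 of dis2D or of wt, and 4 to 7 in the rest of the 19 settings, and the median of -0.25 stayed below 0 in all 19. Histone genes also fell in ssu72D (2 of 9; 8.49% of all genes called lower), swd22D (3 of 9, with 2 higher; 12.9%), PAS-T4A (4 of 9; 4.06%), PAS-T4C (2 of 9; 2.59%) and PAS-T4G (4 of 9; 4.53%). In pfs2-F115H 1 rose (hta1), and in yth1-R59C and the libraries labelled ppn1D none passed (limma). The part of any of these in the members' result was not tested.

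**Figure D5:**
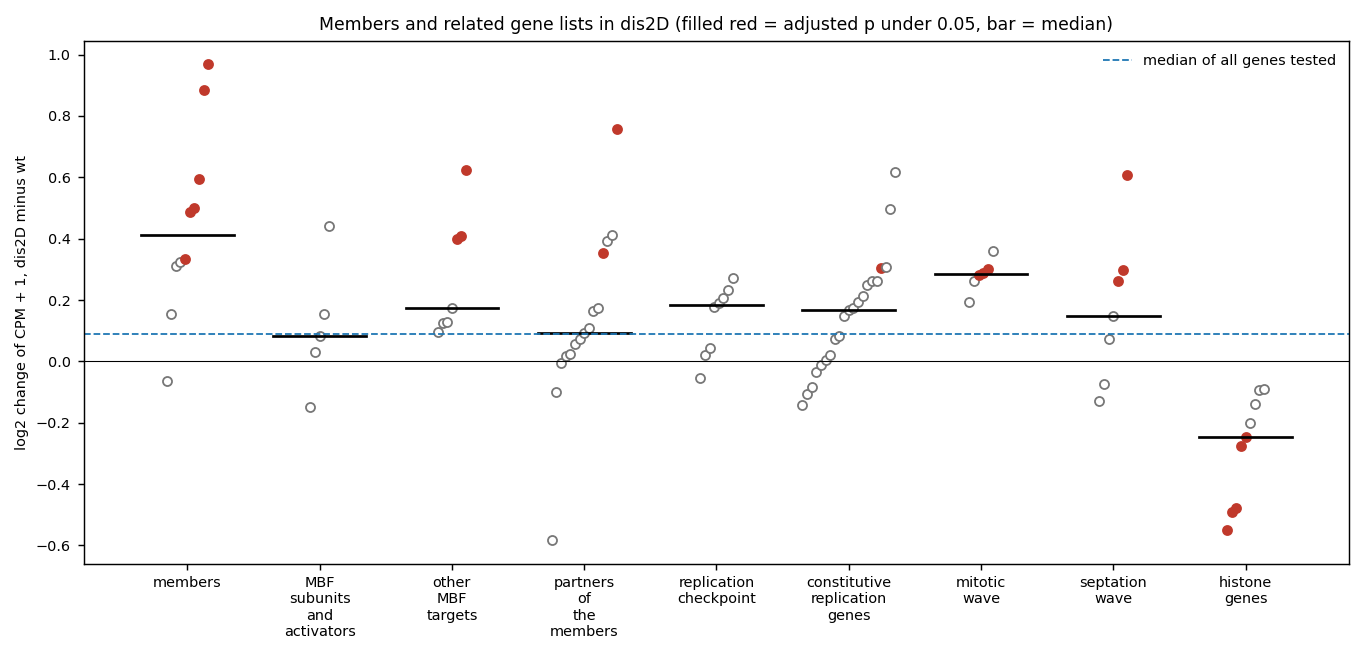
Log2 change of CPM + 1 in dis2D minus wt (vertical axis) for each gene of the members and of 8 related lists. Filled red points passed at an adjusted p under 0.05 (limma), black bars are list medians and the dashed line is the median of all genes tested (0.09). The members' median is 0.41, and that of the histone genes is -0.25.

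In the other strains the related genes did not follow 1 direction. cdc10, the core subunit of MBF, rose in yth1-R59C (0.48), pfs2-F115H (0.52), ssu72D (0.31) and PAS-T4A (0.42). The shares of all genes called higher there were 2.84%, 14.1%, 8.27% and 3.28%. A link between the level of cdc10 RNA and the members was not tested. Of the other activators and subunits, res2 rose by 0.46 in swd22D (adjusted p = 0.0296) and rep2 by 0.39 in PAS-T4G (adjusted p = 0.0295). In swd22D the other MBF targets ctp1 and dut1 fell by 0.69 and 0.65 while tos4 rose by 0.24. In PAS-T4G ctp1 and dut1 also fell, by 0.60 and 0.48, while the DNA polymerase gene pol1 rose by 0.29. tos4 also rose by 0.24 in ssu72D.

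How the calls over all genes split in dis2D depended on the scaling. On the CPM as deposited 428 genes were called higher and 284 lower in dis2D (60.1% higher). Under median-of-ratios scaling 252 were higher and 446 lower (36.1% higher), under TMM scaling 248 and 456, under quantile normalization 278 and 314, with edgeR 329 and 496 and with DESeq2 248 and 407. Under each of these 5 settings 5 or 6 members were called higher and none lower, and the median change of the members was 0.32 to 0.33.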

How the data were processed

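Total RNA libraries (TruSeq Stranded, 50-nt single-end reads) were grouped by strain label, and the 7 small RNA samples were not used. The authors deposited CPM per gene: they aligned reads with STAR (2.7.3a) to ASM294v2 and counted uniquely mapping reads per strand on PomBase genes, leaving out reads shared by genes. In every library 100% of the values were whole multiples of 1 read (within 0.1), so reads were recovered for edgeR and DESeq2.

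log2(CPM + 1) of 5911 of 6996 features (mean of at least 1 CPM) was fitted with limma (3.58.1, R 4.3.3) in 1 model over 10 strains (20 residual degrees of freedom, variance trended on the mean), and p-values were adjusted per comparison by Benjamini-Hochberg. The pseudocount understates the change of low genes. Each mutant was compared with wt, and the 6 CPF mutants with each other (15 comparisons). The code was tested on simulated data. Alternatives were other pseudocounts (0.1 and 4 CPM), filters, scalings, edgeR (4.0.16), DESeq2 (1.42.0), a replicate block, the 2 strains alone, a reference of wt and PAS strains, and leaving out each replicate. They were not run for the comparisons of the CPF mutants with each other. A fit without the libraries labelled ppn1D and the window before the start codon were chosen after seeing the data. Floors of 3 reads cover counting error only.

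The members and lists were chosen with earlier results of these data known. Names were drawn from the members, list genes that passed in at least 1 comparison (not all are named), the 5 genes most like the members, and the mutated genes. Other list genes are given where a list is described in full. Promoters, positions and lengths came from RefSeq ASM294v3, to which 6818 features were matched by identifier. Of the list genes, 1 is not reported here.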

Additional observations from a re-analysis of the deposited data

How the results depend on the processing

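No member's change that passed as reported, against wt in the main fit, turned direction in any setting. By contrast, suc22 in yth1-R59C and suc22 and ssb1 in pfs2-F115H, called only against wt and PAS strains together, had changes on both sides of 0 over the settings. The members passing in dis2D stayed between 5 and 8 (6 as reported) in all settings with all replicates but the 2-fold minimum, which left 0 in dis2D, ssu72D and swd22D, and 4 to 6 when replicates were left out. In ssu72D they were 2 as reported, 1 under TMM scaling, 3 with edgeR and in the fit over the 2 strains, and 0 to 2 when replicates were left out. In swd22D 1 member passed as reported, and 2 each under quantile normalization (20.3% of all genes called), edgeR (19.6%) and DESeq2 (16.2%). Against wt and PAS strains together 3 passed (19.8%), and 0 to 2 when replicates were left out (14.0% to 18.4%). With that joint reference yth1-R59C had 2 (15.9% of all genes called), pfs2-F115H 2 (33.1%) and ppn1D 1 (4.80%). pfs2-F115H had 1 under median-of-ratios scaling (16.5%), TMM scaling (16.7%), edgeR (19.5%) and DESeq2 (16.3%), and yth1-R59C had 1 with DESeq2 (4.87%). PAS-T4G had 2 under median-of-ratios (7.83%) and TMM scaling (7.90%), 1 with edgeR (8.64%) and DESeq2 (8.96%), and 0 to 1 when replicates were left out (4.69% to 7.43%). The other comparisons stayed at 0 when replicates were left out.

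Replicate numbers are shared by the labels. Deviations of same-numbered libraries from their strain means correlated weakly with those of wt (from -0.17 to 0.20 over genes). With a replicate block the members passing stayed 6 in dis2D, 2 in ssu72D, 1 in swd22D and 0 elsewhere, and all genes called in dis2D were 402 higher and 262 lower. In ppn1D, 3 of 3 libraries correlated best with their own number, in swd22D and PAS-T4G 2 of 3, in PAS-T4C 1 of 3 and in the other mutants 0.

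yox1, cdt1, mik1 and cdt2 had under 30 reads in at least 1 library. The 95% intervals of the members' changes reach 0.13 (cdc22) to 0.47 (yox1) to each side (log2).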
